A study of Mus musculus with 6 samples.

Results

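The genes described here build the hair shaft and the inner root sheath of the hair follicle, or regulate that differentiation. A list of 33 genes was taken: 13 hair shaft keratins, 8 inner root sheath keratins, 7 other follicle proteins and 5 transcription factors. Members were all probes, other than controls, that the array names with a listed symbol. This gave 38 of 55681 probes for 32 of the 33 genes, and 30 of these genes were among the 24757 genes and unnamed transcripts tested.

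Total RNA of female FVB/N mice was measured on 1-colour Agilent arrays, with 3 biopsies of healthy skin and 3 biopsies of skin tumors labelled as cutaneous squamous cell carcinoma (cSCC). The tumors were induced with DMBA, a carcinogen that starts them, and PMA (TPA), a promoter that drives their growth. PMA was given for 6 weeks, DMBA again in week 8, and PMA for 14 weeks more. Healthy skin had received acetone only and tissue was taken at several times of the protocol, so tumor, treatment and time of harvest cannot be told apart. The labels give no age, and whether any biopsies share a mouse is not given there. The p-values therefore measure the spread between these samples, which may be technical.

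Hair keratins are intermediate filament proteins that pair as one acidic type I chain and one basic type II chain. In a growing follicle, matrix cells at its base give rise to the shaft, which hardens with hair keratins and keratin-associated proteins. The same matrix gives rise to the inner root sheath, a sleeve around the young shaft that has its own keratins and trichohyalin. Follicles cycle through growth, regression and rest, and both sets of keratins are made mainly during growth. The genes of each keratin type lie side by side. On the array's mm9 map the probes of the type I sheath keratins Krt25, Krt26, Krt27 and Krt28 lie on chromosome 11 between 99177867 and 99234133. Those of the type I shaft keratins Krt31 to Krt36 lie on the same chromosome between 99872578 and 99963631. Type II probes of both kinds lie on chromosome 15. The array's annotation does not state the exon a probe lies in.

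The upstream sequences of 4 keratin genes are shown, chosen for their order of arrays described below. Krt25, Krt27 and Krt71 are the sheath keratins for which tumor 2 lay furthest below tumors 1 and 3. Krt32 is a shaft keratin that did not share the low level on tumor 2. Each run is the 250 bases before the RefSeq start (GRCm38.p6, minus strand), at chr11:99322952-99323201, chr11:99351119-99351368, chr15:101743098-101743347 and chr11:100088270-100088519. Capitals mark matches, on either strand, to 5 short strings whose letters and factors are given after the sequences.
Krt25: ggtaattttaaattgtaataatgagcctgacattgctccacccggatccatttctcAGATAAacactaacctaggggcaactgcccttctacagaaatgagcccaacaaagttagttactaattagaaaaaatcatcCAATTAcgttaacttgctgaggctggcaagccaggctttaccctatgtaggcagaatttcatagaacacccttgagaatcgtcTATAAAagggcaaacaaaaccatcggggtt
Krt27: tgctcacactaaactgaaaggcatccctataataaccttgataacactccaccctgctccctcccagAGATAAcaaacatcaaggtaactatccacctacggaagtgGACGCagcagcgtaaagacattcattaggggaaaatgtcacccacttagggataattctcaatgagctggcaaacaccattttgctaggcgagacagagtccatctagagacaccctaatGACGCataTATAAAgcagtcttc
Krt71: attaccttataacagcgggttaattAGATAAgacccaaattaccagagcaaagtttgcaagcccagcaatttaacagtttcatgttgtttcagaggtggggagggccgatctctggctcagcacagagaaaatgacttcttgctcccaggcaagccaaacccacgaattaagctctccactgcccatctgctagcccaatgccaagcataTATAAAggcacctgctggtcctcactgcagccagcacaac
Krt32: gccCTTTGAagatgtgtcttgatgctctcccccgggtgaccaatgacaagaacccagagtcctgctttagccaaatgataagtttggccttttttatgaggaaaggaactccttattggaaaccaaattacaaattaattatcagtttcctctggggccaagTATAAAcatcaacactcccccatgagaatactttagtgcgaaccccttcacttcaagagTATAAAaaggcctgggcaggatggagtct

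RefSeq's table had an upstream sequence for 25 members. TATAAA, the TATA box, occurred on either strand in 6 of 6 sheath keratin promoters and 6 of 8 shaft keratin promoters, against 12.4% of all 32851 promoters, each searched over the 250 bases before its start. AGATAA, a core that GATA factors bind, occurred in 4 of 6 sheath and 0 of 8 shaft keratin promoters, against 10.0% of all promoters. TAATTG, a core for MSX and DLX factors, was also found in 4 of 6 and 0 of 8, against 7.2%. CTTTGA, a core for LEF1 and TCF factors, occurred in 1 of 6 sheath and 4 of 8 shaft keratin promoters, against 13.8%. GACGC, a core for FOXN1, occurred in 1 of 6 and 1 of 8, against 22.6%. The strings were counted separately and may overlap. Neighbouring keratin genes arose by duplication and are not independent of each other, and a match of letters is not a measured binding site.

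A level below is the log2 processed signal minus the array's 75th percentile, so a level of 0 is a signal that 3 in 4 spots did not exceed. The share of spots well above background was 57.4% to 63.6% on the healthy arrays and 48.7% to 65.4% on the tumor arrays, where tumor 1 was lowest and had the highest median background (85, against 23 to 26 on the other arrays). All 6 arrays lay on 1 slide, with healthy skin 1 and 2 in the upper row and the other 4 arrays in the lower. Krt5 and Krt14, keratins of the basal epidermis, were well above background on all 6 arrays.

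No hair or sheath keratin passed the group test between tumors and healthy skin described below, and small differences may be missed with 3 arrays a group. Among those tested, only Krt85 had groups without overlap, and its direction depended on the probe. Most of these keratins differed widely between arrays of one group, though some shaft keratins, such as Krt81, did not among tumors. Healthy skin 1 was the highest of all 6 arrays for 23 of the 30 tested members (76.7%), whereas this held for 7.5% of all features. Tumors 1 and 3 both exceeded healthy skin 2 and 3 for 6 of 6 sheath keratins and 11 of 12 shaft keratins. Tumor 2 was the lowest tumor for 6 of 6 sheath keratins and for 8 of 12 shaft keratins, and for 70% of all tested members against 28.1% of all features. In whole biopsies, fewer cells of a type and less RNA per cell cannot be told apart.

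**Figure D1:**
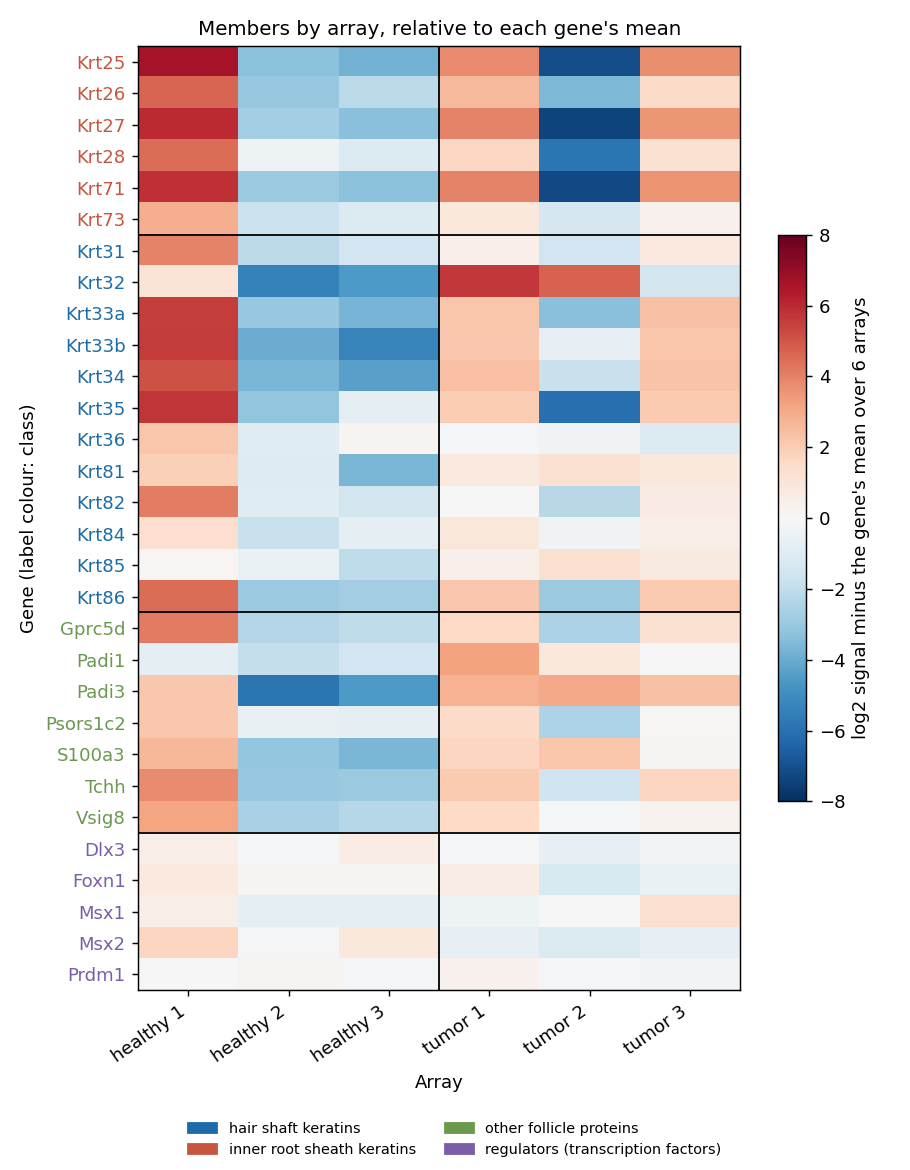
Level of each tested member (rows, grouped by class) on each array (columns), as log2 signal minus the gene's mean over the 6 arrays, from blue (low) to red (high). The sheath keratins were high on healthy skin 1 and on tumors 1 and 3, and tumor 2 was the lowest tumor for all 6.

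By class medians, the spread within a group was wider for keratins and other follicle proteins than over all features. The median within-group SD was 4.70 in healthy skin and 5.24 in tumors for sheath keratins, 3.47 and 1.58 for shaft keratins, and 3.51 and 1.65 for other follicle proteins. Single members were narrower, such as Krt81 (0.24) and Padi3 (0.35) in tumors. Over all features it was 0.42 and 0.36, and for the 5 regulators it was 0.42 and 0.33. Healthy skin 1 exceeded the mean of healthy skin 2 and 3 by over 4 log2 units for 20 of 30 members (66.7%), against 0.469% of all features (116). Tumor 2 lay over 4 log2 units below the mean of tumors 1 and 3 for 9 of 30 members (30%), against 0.315% of all features (78). These contrasts set 1 array against 2 and were chosen after the values were seen, so they have no test. On tumor 2, 4 of 6 sheath keratins and 1 of 12 shaft keratins were not well above background. On healthy skin 2 or 3 this held for 2 and 4 of them. The SDs and distances of the keratins therefore rest in part on signals too weak to measure.

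**Figure D2:**
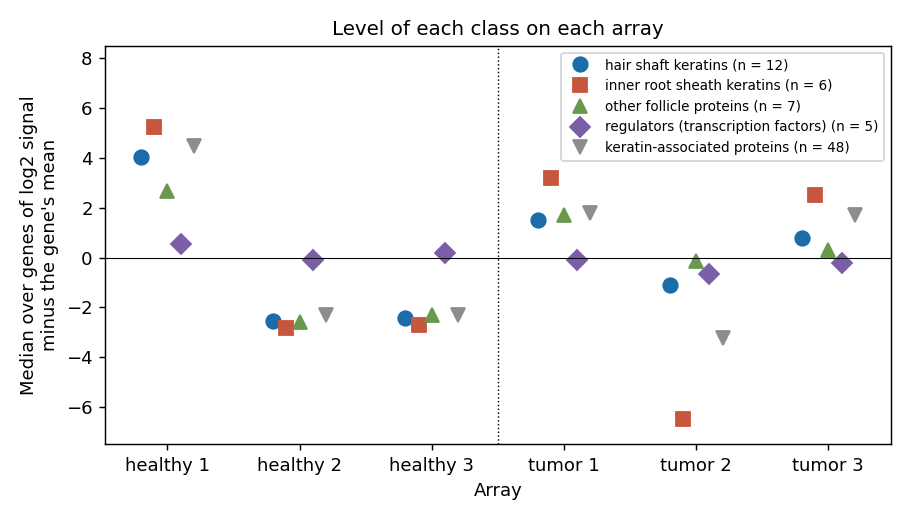
Median over the genes of a class (vertical axis, log2 signal minus each gene's mean over the 6 arrays) on each array (horizontal axis), for the 4 classes and for 48 keratin-associated proteins. The sheath keratins ran from 5.26 on healthy skin 1 to -6.48 on tumor 2, while the regulators stayed between 0.55 and -0.67. On tumor 2, 4 of the 6 sheath keratins were not well above background.

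Against this spread, limma called 2 of the 30 tested members at an adjusted p under 0.05 between 3 tumors and 3 healthy skins. Padi1 was higher and Msx2 lower, and of all features 25.9% were called (10.3% higher, 15.6% lower). No shaft keratin and no sheath keratin was called, with the lowest unadjusted p at 0.026 for Krt85 and 0.0316 for Krt32. The median log2 fold change (tumor minus healthy skin) was 0.83 for 12 shaft keratins, 0.16 for 6 sheath keratins, 1.46 for 7 other follicle proteins and -0.66 for 5 regulators, against -0.16 over all features. The groups did not overlap for 1 member that was lower (Msx2) and for 3 that were higher in tumors (Padi1, Padi3 and Krt85). Among all features 29% were lower and 20.7% higher without overlap.

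**Figure D3:**
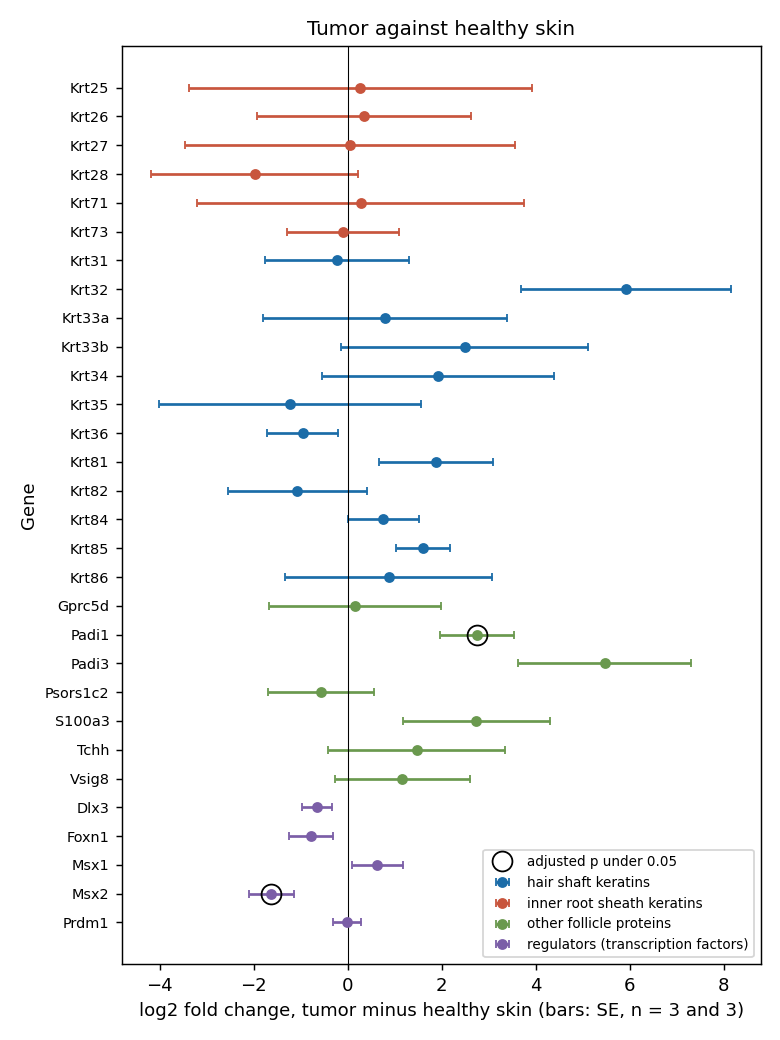
Log2 fold change of tumor against healthy skin (horizontal axis, tumor minus healthy skin) for each tested member, with bars for the SE of the limma fit over 3 and 3 arrays and rings on the calls. Only Padi1 (2.74) and Msx2 (-1.63) are ringed, and the bars of Krt25, Krt27 and Krt71 span more than 3 log2 units on each side.

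Among inner root sheath keratins, Krt71 is the type II keratin whose mutation gives curly coats in several mammals. Its level was 7.62, -1.21 and -1.53 on healthy skin 1, 2 and 3, and 5.76, -5.44 and 5.39 on tumors 1, 2 and 3. Tumor 2 was below every other array, and the signal on tumor 3 was 1821-fold that on tumor 2. The tumor 2 level lay close to the lowest signal well above background on that array (-5.75), so this fold is imprecise. The log2 fold change between groups was 0.27 ± 3.48 (SE), with an adjusted p of 0.96 in limma. Krt71 on mm9 was measured at chr15:101564426-101564485.

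Krt25 and Krt27, type I partners of Krt71, followed the same order of arrays. Krt25 had levels of 5.91, -4.04 and -4.51 in healthy skin, and 3.06, -7.86 and 2.97 in tumors. Krt27 had levels of 5.65, -3.01 and -3.63 in healthy skin, and 3.65, -7.71 and 3.20 in tumors. Both were not well above background on tumor 2, so the distance to the lower of tumors 1 and 3 is a bound: at least 420.05-fold for Krt25 and at least 494-fold for Krt27. The bound sets that tumor against the lowest signal that was well above background on tumor 2. Their group differences were 0.27 ± 3.65 and 0.04 ± 3.51 (SE).

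Krt28, another type I sheath keratin, had levels of 4.44, -0.39 and -1.08 in healthy skin and 1.66, -5.83 and 1.20 in tumors. It was not well above background on tumor 2, at least 123-fold below tumor 3. Its second probe gave the same order of tumors, with -0.02, -7.99 and -0.55. Krt26 was well above background on only 1 healthy array and 2 tumor arrays, with 0.37 on healthy skin 1, -1.71 on tumor 1 and -2.79 on tumor 3. Krt73, a type II keratin of the sheath cuticle, was the exception in size: it had 4.40, -0.24 and 0.40 in healthy skin and 2.33, 0.13 and 1.81 in tumors. It was the only one of the 6 sheath keratins for which tumor 2 was not the lowest of all arrays.

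Of the 8 listed sheath keratins, 2 were not tested. Krt74 was well above background on 1 array, healthy skin 1, at -4.02. Krt72 had no probe under that name. The array carries a probe named Krt72-ps, whose accession RefSeq assigns to Krt72, and this probe lies outside the list. Its levels were 3.06, 3.12 and 1.28 in healthy skin and 0.07, -6.26 and -1.07 in tumors. The groups did not overlap, and the log2 fold change was -4.91 ± 1.52 (SE), with a limma adjusted p of 0.0505. Healthy skin 2 was thus as high as healthy skin 1 for this probe, unlike for the 6 tested sheath keratins.

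Among hair shaft keratins, Krt33a, Krt33b, Krt34 and Krt86 were highest on healthy skin 1 and, among tumors, lowest on tumor 2, as the sheath keratins were. Tumor 2 was not the lowest of the 6 arrays for any of these 4. Krt33a, a type I keratin of the shaft cortex, had levels of 5.92, -2.67 and -3.35 in healthy skin and 2.55, -2.99 and 2.72 in tumors. Krt86, a type II keratin of the cortex, had levels of 5.61, -1.87 and -1.69 in healthy skin and 3.29, -1.84 and 3.22 in tumors. For both, tumor 2 was at the level of healthy skin 2 and 3. Krt33b had levels of 4.74, -4.86 and -6.19 in healthy skin and 1.31, -1.51 and 1.36 in tumors, so that tumor 2 lay above healthy skin 2 by 3.35 log2 units. Krt34 had 4.20, -4.58 and -5.27 in healthy skin and 1.48, -2.73 and 1.36 in tumors.

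Krt35 is a type I keratin made early in the shaft, in the matrix and cuticle. It had levels of 5.13, -3.75 and -1.34 in healthy skin and 1.46, -6.60 and 1.51 in tumors. It was the only shaft keratin of the 12 that was not well above background on tumor 2, at least 148-fold below tumor 1. Krt31, another type I keratin, had 4.49, -1.61 and -1.06 in healthy skin and 0.91, -1.05 and 1.27 in tumors. Tumor 2 was its lowest tumor but lay at the level of healthy skin 3. For Krt82, a type II keratin of the shaft cuticle, tumor 2 was the lowest of the 6 arrays at -5.15, and the other tumors were at -2.92 and -2.27.

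Krt32, Krt81 and the probe that stood for Krt85 did not share the low level on tumor 2. Krt32, a type I keratin of the shaft cuticle, had levels of -0.77, -7.31 and -6.48 in healthy skin and 3.74, 2.85 and -3.39 in tumors. It was well above background on 1 of 3 healthy arrays and on all 3 tumor arrays, and tumors 1 and 2 lay above every healthy array. Its log2 fold change was 5.92 ± 2.24 (SE), with an adjusted p of 0.0904 in limma. Krt32 was therefore not called, and it passed the background filter mainly through the tumors. Its probe lies at chr11:99947991-99948050 (mm9).

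Krt81 and Krt85 are type II shaft keratins. Krt81 had levels of 4.41, 1.43 and -1.20 in healthy skin and 3.24, 3.70 and 3.31 in tumors. The tumors lay close together, between 3.24 and 3.70, and healthy skin 1 was higher than all of them. The probe that stood for Krt85, which the array's annotation does not place on the genome, had 4.11, 3.41 and 1.87 in healthy skin and 4.33, 5.23 and 4.62 in tumors. These groups did not overlap, and the log2 fold change was 1.60 ± 0.58 (SE), with a limma adjusted p of 0.0796.

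The other probes named Krt85 gave other orders. One, at chr15:101346117-101346176, had 1.45, 0.56 and -0.04 in healthy skin and -0.05, -0.79 and -0.37 in tumors, which was lower rather than higher in tumors (log2 fold change -1.06). The other, at chr15:101261695-101261754, had 4.75, -3.90 and -4.50 in healthy skin and 1.37, -5.63 and 1.52 in tumors, the order of the sheath keratins. It lies 84.4 kb from the first and 1.9 kb from the probe named Krt83 on the array, whose accession RefSeq assigns to Krt87. The unmapped Krt85 probe matched the Krt81 probe at 51 of 60 bases, and the Krt81 probe matched the probe named Krt83 at 51. The mapped Krt85 probes matched no probe of another gene at more than 33 bases. Krt81 and the unmapped Krt85 probe may therefore not be separate readings. The direction for Krt85 depends on the probe, and binding of RNA from a neighbouring type II keratin to these probes was not tested.

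**Figure D4:**
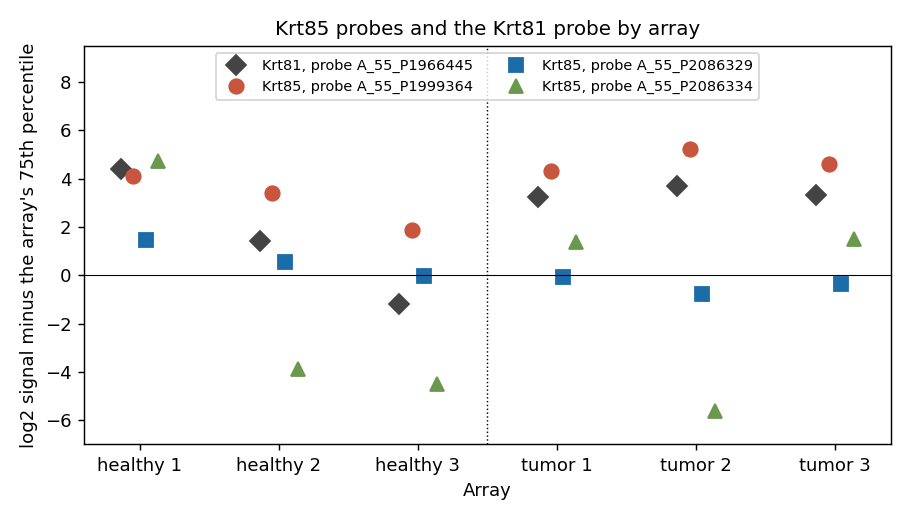
Level (vertical axis, log2 signal minus the array's 75th percentile) of the 3 probes named Krt85 and of the Krt81 probe on each array (horizontal axis). The unmapped Krt85 probe was highest on tumor 2 (5.23), where the probe beside Krt83 was at -5.63.

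Krt36 and Krt84, keratins of hard epithelia such as the nail and tongue, had the narrowest ranges over the 6 arrays among the 12 shaft keratins. Krt84 ranged from -2.77 to 0.34, and Krt36 from -2.44 to 0.82. Krt40 was not tested: its probes were well above background on 1 and on 2 of the 6 arrays.

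The other follicle proteins lay between these patterns. Tchh encodes trichohyalin, which stiffens the inner root sheath and the medulla. Its levels were 6.21, -0.61 and -0.51 in healthy skin and 4.51, 0.81 and 4.16 in tumors. Tumor 2 exceeded healthy skin 2 and 3, in contrast to the 6 tested sheath keratins, of which none did. S100a3, a calcium-binding protein of the shaft cuticle, had 4.90, -0.87 and -1.45 in healthy skin and 3.92, 4.44 and 2.43 in tumors. Tumor 2 was its highest tumor.

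Padi3 is a deiminase that turns arginine into citrulline and acts on trichohyalin and S100a3. Its levels were 2.72, -5.27 and -4.02 in healthy skin and 3.34, 3.60 and 2.90 in tumors, with no overlap. It was well above background on 2 of 3 healthy arrays, and healthy skin 1 lay just under the lowest tumor. The log2 fold change was 5.47 ± 1.84 (SE), and with an adjusted p of 0.0655 in limma it was not called. The upstream sequence of Padi3 held none of the 5 strings.

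Padi1, a related deiminase that is also found in the epidermis, was the one member called higher. Its levels were -0.47, -1.67 and -1.27 in healthy skin and 3.46, 1.07 and 0.30 in tumors, so that every tumor lay above every healthy array. The change was 6.69-fold, or 2.74 ± 0.78 (log2, SE), with a limma adjusted p of 0.0396. The call was lost in 7 of 17 alternatives, among them without healthy skin 1 (adjusted p 0.053), healthy skin 2 (0.101), healthy skin 3 (0.106) or tumor 2 (0.0651). Against healthy skin 3 alone, which lay in the same slide row as the tumors, the log2 fold change was 2.88 and the adjusted p 0.127.

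Gprc5d, an orphan receptor of hard keratinizing cells, had 3.52, -2.96 and -2.63 in healthy skin and 0.96, -3.15 and 0.58 in tumors, the order of the sheath keratins. Vsig8, an immunoglobulin domain protein, had 4.98, -0.74 and -0.47 in healthy skin and 3.41, 1.69 and 2.15 in tumors. Psors1c2 had 4.73, 1.98 and 1.82 in healthy skin and 4.08, 0.12 and 2.63 in tumors. All 3 were highest on healthy skin 1 and lowest among tumors on tumor 2, and none was called.

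**Figure D5:**
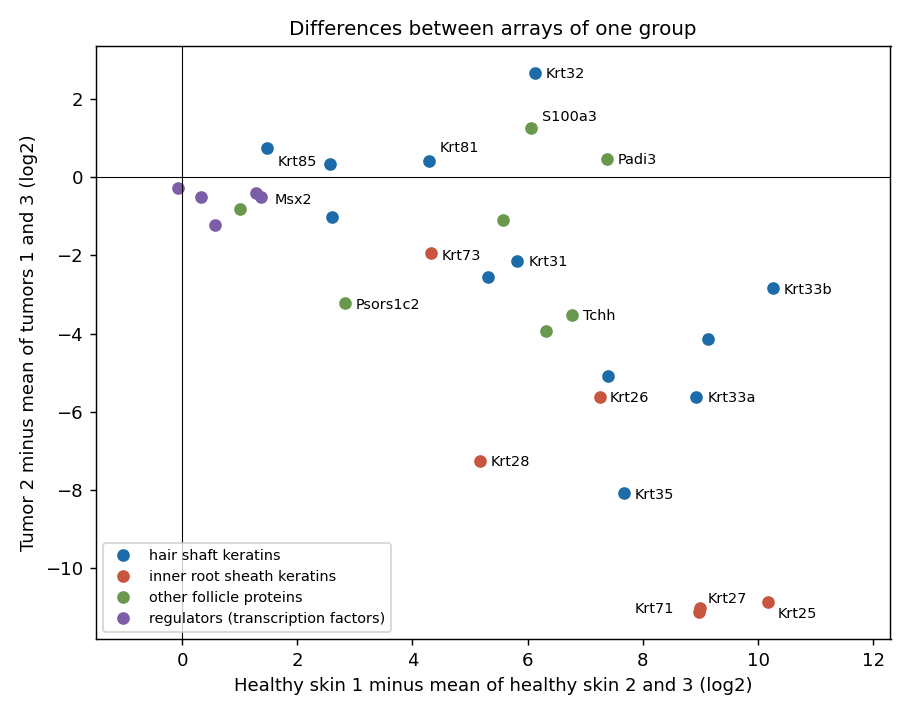
Difference of healthy skin 1 from the mean of healthy skin 2 and 3 (horizontal axis, log2) against the difference of tumor 2 from the mean of tumors 1 and 3 (vertical axis, log2) for each tested member, coloured by class. The regulators sit near 0 on both axes, Krt25, Krt27 and Krt71 sit at about 9 to 10 and -11, and Krt32 lies at 6.12 and 2.67.

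By class medians, the 5 transcription factors varied less within each group than the keratins did. Msx2 and Foxn1 were still highest on healthy skin 1 and lowest on tumor 2, as most sheath keratins were. Msx2, a homeobox factor needed to keep follicles in growth and the shaft anchored, was the one member called lower. It had levels of 1.16, -0.67 and 0.26 in healthy skin and -1.20, -1.71 and -1.23 in tumors, with no overlap. The change was 3.09-fold, or -1.63 ± 0.47 (log2, SE), with a limma adjusted p of 0.0422. This call was lost in 12 of 17 alternatives: leaving out healthy skin 1 (adjusted p 0.0982), healthy skin 3 (0.0945), tumor 1 (0.0833), tumor 2 (0.121) or tumor 3 (0.080) each ended it, and the direction stayed in all 17. Within the lower slide row the log2 fold change was -1.64.

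Foxn1, the forkhead factor lost in the nude mouse and an activator of hair keratin genes, had levels of -0.03, -0.60 and -0.60 in healthy skin and -0.23, -2.0 and -1.34 in tumors. The log2 fold change was -0.78 ± 0.47 (SE), with a limma adjusted p of 0.252. Dlx3, a homeobox factor of the shaft and sheath, had 2.45, 1.75 and 2.49 in healthy skin and 1.79, 1.23 and 1.70 in tumors, at -0.66 ± 0.33 (SE; adjusted p 0.174). Both signs turned under spike-in scaling. Neither was called.

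Msx1, a homeobox factor related to Msx2, had -0.92, -2.15 and -2.25 in healthy skin and -1.84, -1.41 and -0.18 in tumors, at 0.63 ± 0.54 (SE; limma adjusted p 0.413). Prdm1 is a zinc finger repressor of transcription in epidermis and sebaceous gland. It had 1.38, 1.66 and 1.23 in healthy skin and 1.78, 1.22 and 1.20 in tumors, at -0.02 ± 0.30 (SE, limma adjusted p 0.959). Tumor 2 was below healthy skin 2 and 3 for 4 of the 5 factors. The largest distance of healthy skin 1 from the mean of healthy skin 2 and 3 was 1.36 log2 units, for Msx2, where the median for sheath keratins was 8.12.

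Among arrays left out singly, healthy skin 1 changed the number of member calls most. Without it, limma called 8 of 30 members, all higher in tumors, against 6.79% of all features called higher. Healthy skin 1 was the highest array for 23 of 30 members, so leaving it out raised their differences in advance. The calls without it are therefore description only. The members called were the shaft keratins Krt32, Krt33b, Krt34, Krt81 and Krt85 (its unmapped probe), with Padi3, S100a3 and Vsig8. Of the healthy arrays that remained, Padi3 was not well above background on healthy skin 2, Krt33b and Krt34 on healthy skin 3, and Krt32 on both, so their sizes are not given. Among the arrays that remained, Krt32 was well above background on tumors only. S100a3, measured on all arrays, had a log2 fold change of 4.76 ± 0.63 (SE; adjusted p 0.00489). No sheath keratin was called without healthy skin 1, where their median log2 fold change was 2.90. Leaving out tumor 2 in place of healthy skin 1 gave 0 member calls. It moved the median of the sheath keratins as far, to 2.99. Tumor 2 was the lowest tumor for each tested sheath keratin, so this rise too was set in advance.

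Other genes of the follicle were taken from lists of regulators and of structural genes. Of 24 further regulators and signals of follicle differentiation, 21 were tested: 2 were higher, 9 lower and 10 not called, with a median log2 fold change of -1.04. With 1 array left out at a time, 5 to 7 were lower and 2 to 3 higher. Gata3, a factor needed for the inner root sheath, was lower on every tumor: 4.81, 5.34 and 5.67 in healthy skin against 0.85, 0.62 and 1.73 in tumors (log2 fold change -4.21 ± 0.40, SE; limma adjusted p 0.000866). Its order of arrays differed from that of the sheath keratins, since healthy skin 1 was the lowest of the healthy arrays and tumor 2 was near tumor 1.

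Hoxc13, a homeobox factor that binds hair keratin promoters, was named after its values were seen. It had 1.57, -0.34 and 1.17 in healthy skin and -2.72, -5.47 and -1.45 in tumors (-4.01 ± 1.0, SE; limma adjusted p 0.0254). Its call was lost without healthy skin 1 (0.0658), healthy skin 3 (0.083) or tumor 1 (0.0561). Elf5 (4.19 ± 0.79, SE) and Runx1 (3.22 ± 0.40, SE), transcription factors active in epithelia, were the exceptions that were higher.

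Of 10 further structural genes, 8 were tested, with 1 higher, 1 lower and 6 not called. Dsc2, a desmosomal cadherin, was higher (5.65 ± 0.32, SE; limma adjusted p 0.000234), and Krt79, a keratin of the upper follicle, was lower (-2.59 ± 0.58, SE; adjusted p 0.0177). The call of Krt79 was lost without healthy skin 3 (0.0583). Krt87, Crym, Dsg4 and Krt75 were highest on healthy skin 1 and, among tumors, lowest on tumor 2. Krt87 was 3.26 on healthy skin 1 and -5.51 and -6.53 on the others, and 0.10, -5.37 and 0.10 on the tumors. Krt87, Crym, Dsg4 and Krt75 were named after their values were seen.

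The keratin-associated proteins cross-link hair keratins in the shaft. Of 48 tested, none was higher and 1 was lower (Krtap10-4, log2 fold change -2.01 ± 0.56, SE; limma adjusted p 0.0368). That call was lost without any one of the arrays except tumor 3. Healthy skin 1 was the highest of the 6 arrays for 43 of 48, and tumor 2 was the lowest tumor for 46 of 48. Their medians by array, relative to each gene's mean, were 4.49, -2.30 and -2.30 in healthy skin and 1.80, -3.22 and 1.70 in tumors. On tumor 2 this was between the shaft keratins (-1.10) and the sheath keratins (-6.48).

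Markers of other cell types were called lower in tumors to differing extents, against 15.6% of all features. Some counts moved with 1 array left out. Without healthy skin 2, 6 of 7 melanocyte markers were lower. Without healthy skin 3 or without tumor 1, 3 of 6 adipocyte markers were. The skeletal muscle count stayed at 8. Of skeletal muscle markers 8 of 8 were lower in tumors, with a summed log2 level of 9.62 to 10.4 in healthy skin and 4.68 to 5.81 in tumors. Of 6 tested adipocyte markers 5 were lower (7.73 to 9.40 against 6.10 to 7.80), as were 5 of 7 of the sebaceous gland (5.39 to 6.40 against 2.60 to 3.90). Of follicle bulge markers 5 of 7 were lower (8.06 to 8.61 against 4.62 to 7.84), of tested dermal papilla markers 3 of 6 (1.86 to 2.73 against 1.42 to 3.76) and of epidermal markers 3 of 6 (10.5 to 11.1 against 9.70 to 9.84). Of 7 melanocyte markers 1 was lower (1.01 to 4.53 against -0.97 to 1.23). The adipocyte sum in tumors rested on Fabp4 (5.99 to 7.57 there), the 1 tested marker of that list not called. The dermal papilla marker Hhip was well above background on none of the tumor arrays, and the sebaceous marker Awat2 on 1.

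In none of these 7 lists did healthy skin 1 exceed both other healthy arrays by over 1 log2 unit in summed level. By the median relative to each gene's mean, healthy skin 1 did so in the melanocyte list only. That median was 3.14, -0.59 and 1.89 on healthy skin 1, 2 and 3. The melanocyte list was widest, with summed levels of 4.53, 1.01 and 3.88, and healthy skin 3 was high in it and low in sheath keratins. By summed level, bulge markers were highest on healthy skin 3 (8.61), and dermal papilla markers on tumor 1 (3.76). The dermal papilla sum on tumor 1 rested on Prom1 (3.52). By the median relative to each gene's mean, dermal papilla markers were highest on healthy skin 3 (1.47), with -0.24 on tumor 1. The part of these cell types in the levels of hair and sheath keratins was not tested.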

How the data were processed

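Cy3-labelled RNA (0.2 µg, RNA integrity number 9, per the labels) was hybridized to 1 Agilent slide. Agilent Feature Extraction 10.7.3.1 gave the deposited intensity values, with background subtracted, per the file headers. The deposited series table holds log2 values, for which the submitters' processing notes name limma. How that table was corrected and centred is not given in the sources used here.

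A level is a processed signal in log2, less the 75th percentile of its array over 59305 non-control spots. Spots with outlier flags were left out, and spots of 1 probe were averaged. A probe was kept if at least 3 of 6 arrays had it well above background. The probe with the highest mean stood for its gene. The group test was limma's, version 3.58.1 under R 4.3.3 (two-sided, Benjamini-Hochberg over 24757 features, adjusted p under 0.05), without a block. With 3 arrays a group, precision is limited. Code was tested on simulated data. Genes that are not members were named through RefSeq accessions, symbols or synonyms (GRCm38.p6, names only).

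The members and lists were chosen with earlier results of these data known. The rule for named genes gave values by array to called members, members against their class's direction and every regulator, and named non-members as the 2 largest called changes or the exceptions of a list. Values by array of the other members were added after they were seen. Alternatives were other scalings, background correction, the authors' values, filters, probe averaging, blocks and leaving out arrays. Whether a shared replicate number pairs samples is not known. Correlations of deviations were 0.10, 0.13 and -0.08 for the same number and -0.27 to 0.17 for other pairs, which cannot settle it. Titles and descriptions number the samples differently, and the title's number was used.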

Additional observations from a re-analysis of the deposited data

How the results depend on the processing

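The order of arrays held under quantile, median and spike-in scaling, normexp and the authors' values: tumor 2 was the lowest tumor for 6 of 6 sheath keratins in each, with median distances from -9.07 to -5.83 (normexp). Tumors 1 and 3 exceeded healthy skin 2 and 3 for 11 of 12 shaft keratins, for 12 of 12 with spike-in scaling and for 9 of 12 with normexp. Group differences were less firm, and the cause was not tested. The median change of all features moved from -0.16 to 0.21 under median and 0.73 under spike-in scaling, and the share of calls that were higher from 39.8% to 62.9% and 70.8% (48.5% with probes well above background on all 6 arrays). Calls over all features, 6420, were 2682 with spike-in scaling, 3920 without a detection filter and 3840 to 5458 with 1 array left out.

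Of the 2 member calls, 1 remained in number with quantile normalization and the authors' values, and 0 without a detection filter or without healthy skin 3 and tumor 1 together. Shaft keratins called, 0, became 1 under median and spike-in scaling and 2 with slide row as a block. Regulators called, 1, became 0 under quantile, median and spike-in scaling, the authors' values, no filter, the row block and without that pair of arrays. Other follicle proteins called, 1, became 2 with spike-in scaling and normexp, and 0 with no filter, the row block and without that pair. With the replicate number as a block, 4 members were called, 1 of them a shaft keratin and 2 other follicle proteins.

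The median change of the regulators was -0.29 under median scaling and 0.23 under spike-in scaling, and their range over arrays, 1.22, became 0.77 and 2.09. Signs turned under median scaling for Krt31 (0.14), Krt73 (0.27) and Prdm1 (0.34), and under spike-in scaling for Dlx3 (0.23), Foxn1 (0.11), Krt31 (0.66), Krt73 (0.79), Prdm1 (0.87) and Psors1c2 (0.32). Normexp turned Gprc5d (-0.25) and Krt26 (-0.61), and Gprc5d also turned with the authors' values (-0.017) and the mean of probes (-0.17). The row block turned Krt28 (0.090), Krt31 (1.44), Krt35 (0.13), Krt73 (1.03), Krt82 (0.94), Prdm1 (0.17) and Psors1c2 (0.45). Without healthy skin 3 and tumor 1 the medians were -0.84 for shaft keratins, -3.31 for sheath keratins and -0.20 for other follicle proteins. There Gprc5d (-1.56), Krt25 (-3.38), Krt26 (-1.85), Krt27 (-3.58), Krt33a (-1.76), Krt33b (-0.015), Krt34 (-0.49), Krt71 (-3.24), Krt86 (-1.19), Tchh (-0.31) and Vsig8 (-0.20) turned.

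With 1 array left out, members called ranged from 0 to 8, shaft keratins from 0 to 5, regulators from 0 to 1 and other follicle proteins from 0 to 3. The median change ranged from -0.17 to 2.69 for shaft keratins and from -1.61 to 2.99 for sheath keratins. Single genes that turned ranged from -0.98 to 2.26 (Gprc5d), -1.57 to 3.89 (Krt25), -1.09 to 2.76 (Krt26), -1.92 to 3.76 (Krt27), -3.31 to 0.44 (Krt28), -1.34 to 1.71 (Krt31), -0.86 to 3.77 (Krt33a), -3.11 to 1.47 (Krt35), -1.66 to 3.95 (Krt71), -0.97 to 1.34 (Krt73), -2.08 to 0.70 (Krt82), -0.41 to 3.33 (Krt86), -0.21 to 0.092 (Prdm1) and -1.47 to 0.51 (Psors1c2).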
